A study of Mus musculus with 4 samples.

Results

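The S100a genes encode small calcium-binding proteins with a pair of EF-hand loops, which mostly act as dimers and change shape when calcium binds. Most work inside the cell, where they bind annexins, cytoskeletal proteins and enzymes. Some are released without a signal peptide and then act on receptors such as Toll-like receptor 4 and RAGE. S100a8 and S100a9 form calprotectin, a zinc- and manganese-binding dimer that fills the cytosol of neutrophils, while the other members are used by many cell types, stromal cells among them.

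The 9 members described here were taken by name from a mouse gene array: S100a8 and S100a9, called the neutrophil members below, and S100a4, S100a6, S100a10, S100a11, S100a13, S100a1 and S100a16, called the widely used members. They are 9 of 19938 genes with a value. For S100a11, which has a pair of probe sets, the one with the higher mean over the 4 arrays was kept, and each other member has 1 probe set. The study concerned the marrow niche in myeloproliferative neoplasm (MPN), a clonal overproduction of blood cells. Stromal cells were sorted from the marrow of C57BL/6 mice that carry a green fluorescent reporter under nestin control (Nes-gfp), as cells without CD45, CD31 and Ter119 and with the reporter. The MPN group (n = 3) had received marrow cells with the genotype Mx1-cre;JAK2-V617F 10 weeks earlier, and the control group (n = 1) had received control cells. The labels write the genotype as Nes-gfp;Mx1-cre;JAK2-V617F for MPN and as Nes-gfp for the control, while the design text places the mutant alleles in the transplanted cells. Mx1-cre is switched on by interferon in blood and in other cells, and the reporter marks only stromal cells that use the nestin control region. Conditioning of the hosts, induction of Cre, and the age and sex of the mice are not stated in the labels. Sample titles speak of single mice, and each array was counted as 1 mouse.

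Several measurements bear on how the groups can be read. Array values have no read depth, and 4 arrays limit the precision. Values are deposited on a log2 scale, on which 1 unit is a doubling. Over all genes the median difference was 0.18 (MPN minus control), and the differences below have not been corrected for it. A background limit of 5.21 was taken as the 95th percentile of the mean of 1190 olfactory and vomeronasal receptor genes. Ptprc, the gene of CD45, against which the cells were sorted, was at 10.16, 9.46 and 10.40 in the MPN mice and 7.07 in the control mouse, and Nes was under the background limit on every array. Xist was at 8.37, 9.31 and 9.22 in the MPN mice and 3.30 in the control mouse, while Kdm5d, a Y-linked gene, was at 4.16, 4.16 and 4.14 against 7.72. These genes mark the sex of the cells that gave the RNA, donor or host, which the labels do not state. A difference between the sexes and a difference between the groups therefore cannot be told apart here. In bulk RNA, fewer cells of a type and less RNA per cell cannot be told apart either.

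Upstream sequences of the members that the results turn on are shown first, as the 250 bases before the start that RefSeq annotates (build GRCm38.p6), because these genes lie side by side on 1 chromosome and their differences are set side by side below. Of the 9 members, 8 had an entry, and S100a10 had none. Capitals mark letters of 4 motifs searched on both strands: TATAAA (the TATA box), TTGCNNAA (C/EBP), GAGGAA (Ets factors and PU.1) and TTCNNNGAA (STAT).
S100a8, chr3:90668821-90669070, plus strand: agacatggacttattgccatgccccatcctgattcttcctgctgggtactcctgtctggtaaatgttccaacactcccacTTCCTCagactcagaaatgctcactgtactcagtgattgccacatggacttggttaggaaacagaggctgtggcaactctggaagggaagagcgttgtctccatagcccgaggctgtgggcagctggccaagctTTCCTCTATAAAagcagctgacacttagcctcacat
S100a9, chr3:90695722-90695971, minus strand: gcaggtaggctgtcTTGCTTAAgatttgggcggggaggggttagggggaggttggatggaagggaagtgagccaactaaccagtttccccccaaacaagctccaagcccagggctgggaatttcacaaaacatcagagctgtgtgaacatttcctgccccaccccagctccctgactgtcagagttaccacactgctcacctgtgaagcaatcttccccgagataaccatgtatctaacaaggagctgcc
S100a4, chr3:90603520-90603769, plus strand: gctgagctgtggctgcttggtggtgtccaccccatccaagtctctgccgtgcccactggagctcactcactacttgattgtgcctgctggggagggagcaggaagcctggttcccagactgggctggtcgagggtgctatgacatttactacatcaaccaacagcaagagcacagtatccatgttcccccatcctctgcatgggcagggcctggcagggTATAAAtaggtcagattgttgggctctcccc
The S100a8 stretch held TATAAA from base 30 to base 25 before the start and GAGGAA at 2 places, both on the opposite strand, 1 of them directly before the TATA letters. The S100a4 stretch held TATAAA from base 31 to base 26, and no other match. GAGGAA lay on the opposite strand of S100a4 at bases 20 to 25 after the annotated start, outside the printed stretch. In S100a9 the match was to the C/EBP letters, from base 236 to base 229, and its TATAAA letters were bases 1 to 6 after the annotated start, outside the printed stretch. Over 32851 upstream windows of the same length, 12.4% held TATAAA, 9.56% the C/EBP letters, 23.3% GAGGAA and 7.02% the STAT letters. The STAT letters were in none of the members' windows. GAGGAA also lay in windows of widely used members that are not printed. In S100a11 it ran from base 153 to base 148, and in S100a16 from base 180 to base 175 on the opposite strand. A match is a description of the letters and not of a bound factor.

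S100a1 and S100a13 start head to head on opposite strands, and the stretch between their annotated starts, shown on the plus strand because the pair differed on the arrays, is 104 bases long and held 0 matches.
S100a1 to S100a13, chr3:90514331-90514434: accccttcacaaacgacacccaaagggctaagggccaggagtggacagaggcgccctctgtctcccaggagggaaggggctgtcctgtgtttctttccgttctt

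Of the 9 members, 7 were higher in each of the 3 MPN mice than in the control mouse and 2 were lower in each, and the median difference was 0.96 on the log2 scale. Over all genes measured, 46.8% were higher on each MPN array, 21.1% were lower on each, and the median difference was 0.18. S100a4 and S100a8 were at least 2-fold higher on each MPN array, as were 1.13% of all genes, and no member was at least 2-fold lower on each, against 5.78% of all genes. In limma's test with Benjamini-Hochberg adjustment over all genes, 0 members and 0% of all genes passed the threshold of 0.05. Without adjustment, 3 members (S100a8, S100a9 and S100a10) had p under 0.05, all of them higher, against 3.97% of all genes higher and 8.63% lower. All 9 lay above the background limit in both groups. The lone control array was assumed to vary like the MPN arrays, which these data cannot test.

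**Figure D1:**
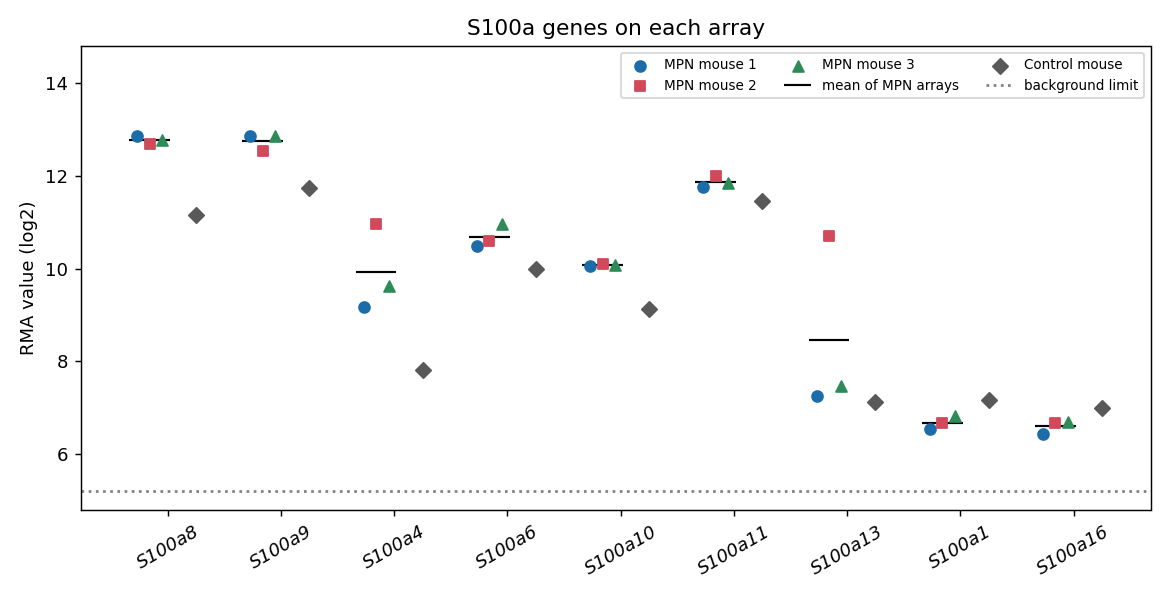
RMA values (log2) of the 9 S100a genes on each array, with the 3 MPN arrays and their mean (bar) left of the control array (diamond) for each gene, and the background limit of 5.21 as a dotted line. S100a8, S100a9, S100a4, S100a6, S100a10 and S100a11 lie above the control on each MPN array, S100a13 is far above it on the array of MPN mouse 2, and S100a1 and S100a16 lie below it.

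Among the neutrophil members, S100a8 was at 12.87, 12.69 and 12.77 in the MPN mice, against 11.15 in the control mouse. The MPN values lay close together and did not overlap the control. Its difference was 1.63 (SE 0.16, 95% interval 1.14 to 2.12, unadjusted p = 0.00129, limma adjusted p = 0.108), which is 3.10-fold. S100a9, the partner subunit, was at 12.86, 12.53 and 12.87 in the MPN mice, against 11.74 in the control mouse. The groups did not overlap here either, and the difference was 1.01 (SE 0.23, 95% interval 0.34 to 1.69, limma adjusted p = 0.259). S100a8 differed more than its partner, by 0.60, 0.76 and 0.50 in MPN mice 1, 2 and 3, a mean of 0.62 ± 0.13 (SD, n = 3). Each of these values was taken against the same control array, so the SD holds the spread of the MPN mice only. The highest value of any probe set was 13.57, 13.63 and 13.63 in the MPN mice and 13.56 in the control mouse, so both genes lay near the top of the scale on the MPN arrays. Compression near the top was not tested. With cyclic loess the S100a9 difference was 0.64.

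S100a4, also known as fibroblast-specific protein 1 or metastasin, binds non-muscle myosin and is found in fibroblasts and in blood cells. It was at 9.17, 10.97 and 9.63 in the MPN mice, against 7.83 in the control mouse. Each MPN array lay above the control, and MPN mouse 2 stood highest. The difference of 2.10 (SE 0.84, 95% interval -0.41 to 4.605, limma adjusted p = 0.432) was the largest of the 9 and had a wide interval. Without MPN mouse 2 it was 1.58.

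S100a10, or p11, has lost calcium binding and holds annexin A2 in a tetramer at the cell surface, where plasminogen binds. It was at 10.06, 10.11 and 10.09 in the MPN mice, against 9.13 in the control mouse. The MPN arrays were nearly identical, and each lay just short of 2-fold above the control, by 0.93, 0.98 and 0.96. The difference was 0.96 (SE 0.15, 95% interval 0.52 to 1.39, unadjusted p = 0.00491, limma adjusted p = 0.167). Anxa2, the gene of its partner, was at 9.21, 9.12 and 9.04 in the MPN mice against 8.59, a difference of 0.54 (SE 0.16, limma adjusted p = 0.364), or 0.28 with arrays levelled on the receptor genes. S100a10 differed more than Anxa2 in each MPN mouse, by 0.42 ± 0.10 (SD, n = 3) on average, where the SD again holds the spread of the MPN mice only.

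S100a6, or calcyclin, binds annexin A11 and the calcyclin-binding protein Cacybp. It was at 10.48, 10.60 and 10.96 in the MPN mice, against 10.00 in the control mouse, a difference of 0.68 (SE 0.26, limma adjusted p = 0.426). S100a11, or calgizzarin, a partner of annexin A1, was at 11.77, 11.995 and 11.86 in the MPN mice, against 11.46 in the control mouse, a difference of 0.41 (SE 0.18, limma adjusted p = 0.439). Both were above the control on each MPN array. S100a11 differed by 0.31, 0.53 and 0.40, where the median of all genes differed by 0.20, 0.21 and 0.08. The second probe set of S100a11 was at 11.58, 11.73 and 11.57 in the MPN mice against 11.19, a difference of 0.43, so the 2 probe sets gave nearly the same value. A pseudogene of S100a11 is annotated in RefSeq, and whether either probe set also reads it was not tested. The S100a11 difference was 0.16 after repeated quantile normalisation, 0.11 with cyclic loess and 0.16 with arrays levelled on the medians of the receptor genes, and the S100a6 difference was 0.42 with that shift.

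S100a13 helps release fibroblast growth factor 1 and interleukin 1 alpha, which lack signal peptides. It was at 7.25, 10.71 and 7.46 in the MPN mice, against 7.13 in the control mouse. MPN mouse 2 alone stood apart, and the other two lay close to the control. The difference of 1.35 (SE 1.72, 95% interval -3.80 to 6.50, limma adjusted p = 0.704) was within the spread of the MPN mice, and without MPN mouse 2 it was 0.23.

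S100a1, which acts on the calcium release channel and calcium pump of muscle, was at 6.54, 6.67 and 6.83 in the MPN mice, against 7.16 in the control mouse. S100a16, a widely expressed member, was at 6.44, 6.67 and 6.70 in the MPN mice, against 7.01 in the control mouse. Both lay below the control on each MPN array. The differences were -0.48 (SE 0.20, limma adjusted p = 0.433) for S100a1 and -0.40 (SE 0.19, limma adjusted p = 0.448) for S100a16. After repeated quantile normalisation they were -0.11 and -0.05, and with arrays levelled on the receptor genes -0.74 and -0.66. Of the pairs among the 9, S100a1 and S100a16 had the most similar profiles over the 4 arrays, with a root mean square difference of 0.06 between values centred on each gene's mean. S100a1 and its head-to-head neighbour S100a13 went apart, since S100a13 minus S100a1 was higher than in the control by 0.75, 4.07 and 0.67 in MPN mice 1, 2 and 3.

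**Figure D2:**
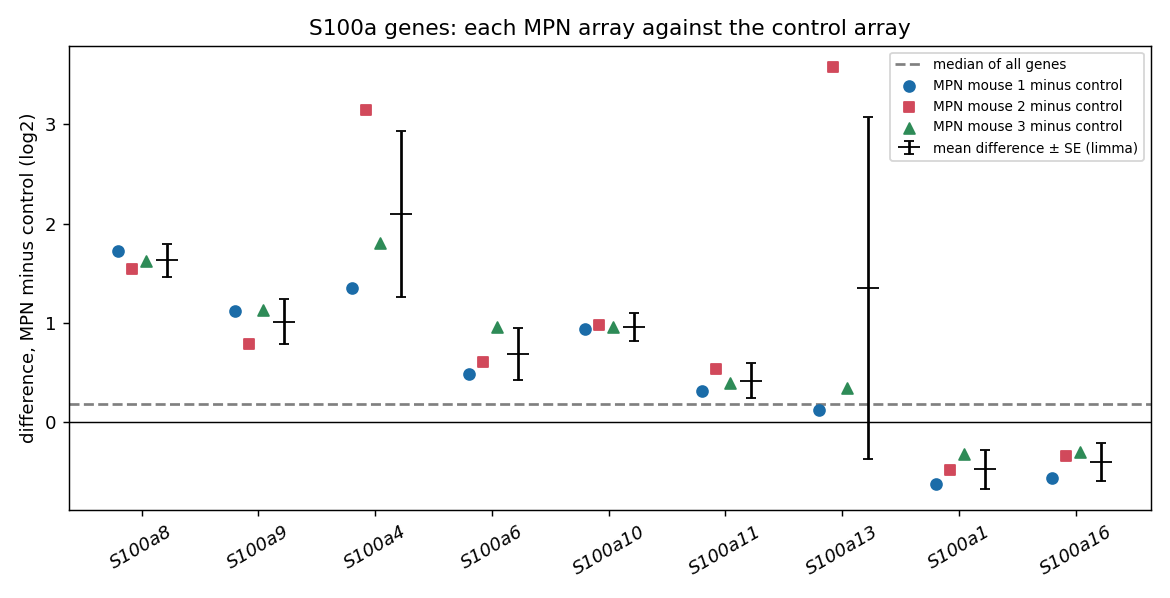
Difference in RMA value (log2) between each MPN array and the control array for the 9 S100a genes, with the mean difference ± SE from limma (n = 3 MPN, 1 control) and the median of all genes, 0.18, as a dashed line. S100a8, S100a9, S100a10 and S100a11 have tight points above the line, and S100a6 also lies above it on each MPN array. S100a4 and S100a13 are spread by MPN mouse 2, and S100a1 and S100a16 lie below 0.

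The neutrophil members were compared with the widely used ones within each array. The mean difference from the control was 1.42, 1.16 and 1.38 for S100a8 and S100a9 in MPN mice 1, 2 and 3, and 0.29, 1.14 and 0.55 for the 7 widely used members. The neutrophil members differed more from the control by 1.14, 0.02 and 0.83, a mean of 0.66 ± 0.58 (SD, n = 3). In MPN mouse 2, where S100a4 and S100a13 were high, the sets were nearly level. This contrast was 0.43 without MPN mouse 1, 0.34 after repeated quantile normalisation and 0.40 with cyclic loess. With 1 control array and a score over chosen genes it was given no test.

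Markers of other cells moved on the same arrays. Of 20 measured neutrophil markers, 19 were higher on each MPN array and 17 at least 2-fold higher, with a median difference of 2.98. Their mean log2 level was 9.63, 8.90 and 10.14 in the MPN mice and 6.54 in the control mouse, and 0 of the 20 lay under the background limit on every array. Ctsg, the cathepsin of primary granules, was at 10.00, 10.17 and 10.88 in the MPN mice, against 7.31 in the control mouse, a difference of 3.04 (SE 0.44, limma adjusted p = 0.154). Mmp8, the collagenase of secondary granules, was at 10.77, 10.19 and 11.04 in the MPN mice, against 5.90 in the control mouse, a difference of 4.765 (SE 0.41, limma adjusted p = 0.0918). Cxcr2, the chemokine receptor of mature neutrophils, was at 9.78, 4.20 and 9.46 in the MPN mice, against 3.84 in the control mouse, and MPN mouse 2 stayed near the control. S100a8 and S100a9 minus the 20 markers, taken within each array and set against the control, came to -1.67, -1.19 and -2.22 in MPN mice 1, 2 and 3. The part of neutrophil content in the differences of the S100a genes was not tested.

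Leukocyte and stromal markers went opposite ways beside them. Of 10 pan-leukocyte markers, 9 were higher on each MPN array, with a median difference of 2.50, and the mean log2 level was 9.30, 8.73 and 9.47 in the MPN mice and 6.80 in the control mouse. Of 13 stromal markers, 12 were at least 2-fold lower on each MPN array, with a median difference of -3.18, and the mean level was 6.30, 5.70 and 6.34 in the MPN mice and 9.42 in the control mouse. Kitl, the stem cell factor of niche cells, was at 4.40, 3.71 and 4.21 in the MPN mice, against 9.997 in the control mouse, a difference of -5.89 (SE 0.35, limma adjusted p = 0.0871). Of 9 measured monocyte and macrophage markers, 4 were higher and 1 was lower on each MPN array, with a median of 0.30, a mean level of 5.28, 6.07 and 5.99 in the MPN mice against 5.26, and 2 under the background limit on every array. Median differences were 0.40 for 8 endothelial, 0.26 for 6 B lineage, 0.33 for 4 erythroid and 0.82 for 5 megakaryocyte markers. In the same order, 3, 2, 1 and 0 of these markers lay under the background limit on every array. These medians cover single genes that stood apart. Ebf1, listed with the B lineage, was at 5.04, 5.16 and 4.59 in the MPN mice, against 9.27 in the control mouse. Its difference was -4.34 (SE 0.30, limma adjusted p = 0.0871). Cd79b, Pax5 and Ms4a1 of the same list were higher on each MPN array, by 0.70, 0.56 and 0.38, and Cd79a differed by 0.14. Ms4a1 and Cd79a lay under the background limit on every array, and Pax5 was just above it in the control mouse, at 5.29. The cell type behind the Ebf1 value was not tested. Vpreb1, a part of the pre-B cell receptor, was at 4.36, 11.26 and 4.805 in the MPN mice, against 9.64 in the control mouse. Pf4, a platelet chemokine, was at 6.29, 8.35 and 5.89 in the MPN mice, against 5.03 in the control mouse. MPN mouse 2 was thus highest in Vpreb1 and Pf4, as it was in S100a4 and S100a13, and the part of other blood cells in those values was not tested. S100a4, S100a6, S100a10 and S100a11, which stromal cells also use, were thus higher on arrays where stromal markers were lower. Their part from each cell type was not tested.

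**Figure D3:**
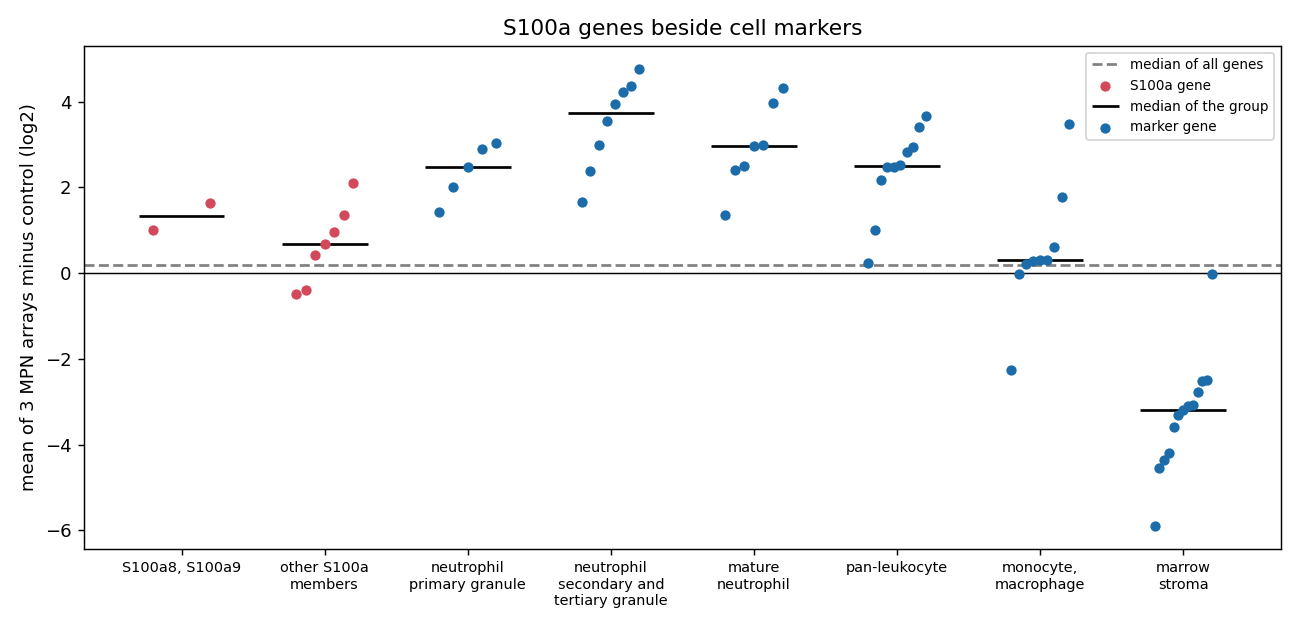
Mean of the 3 MPN arrays minus the control array (log2) for single genes, with S100a genes in red, marker genes in blue, the median of each group as a bar and the median of all genes, 0.18, as a dashed line. The S100a genes lie between -0.48 and 2.10, below most neutrophil markers. The median of the stromal markers is -3.18, and 1 of them, Nes, lies at -0.01, above S100a1 and S100a16.

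Other S100 genes were mostly near background. S100b, a protein of glia that also occurs in other cells, was at 10.69, 9.64 and 9.31 in the MPN mice, against 7.04 in the control mouse. Each MPN array lay well above the control, with a difference of 2.84 (SE 0.66, limma adjusted p = 0.27), larger than that of any of the 9 members. Beside it, Schwann cell markers had a median of 0.41 over 5 measured genes. Mbp, a myelin protein, was higher by 2.34 (SE 0.33), Sox10, a defining factor of the lineage, by 0.44 and Ngfr by 0.41. Cdh19 and Gfap, with differences of -0.02 and 0.29, lay under the background limit on every array. A glial part in the S100b value was not tested. S100a7a and S100a3 were higher on each MPN array, with differences of 0.57 (SE 0.20) and 0.59 (SE 0.23). S100a5 was lower on each, with -0.78 (SE 0.31), and S100z, S100a14 and S100g gave 0.43, 0.31 and -0.01. Neither group reached the background limit in S100a3, S100z or S100a14. S100a5 lay under it on each MPN array, at 5.07, 4.45 and 4.66, and was at 5.51 in the control mouse. S100a2, which was added after its values were seen, gave 0.08. The S100 fused-type genes of skin, 6 measured, had a median of 0.33, and 4 were higher on each MPN array.

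Gene order along the chromosome was taken from the RefSeq table. The order of the S100 genes with a value is S100a1, S100a13, S100a14, S100a16, S100a3, S100a2, S100a4, S100a5, S100a6, S100a7a, S100a8 and S100a9, and S100a11 and S100a10 follow after a run of skin genes. S100a7l2, between S100a9 and S100a11, was not analysed here. Of 92 other genes that lie between the outermost members, 53 named ones had a value, and 15 of these lay above the background limit in either group. Their median difference was 0.34, 41 were higher and 1 was lower on each MPN array, and 0 were 2-fold apart on each. Over all genes measured, 46.8% were higher and 21.1% were lower on each MPN array. The 1190 receptor genes that set the background limit had a median difference of 0.255. S100a5 sits between S100a4 and S100a6 and was the 1 neighbour that was lower on each MPN array, where it lay under the background limit. Hrnr, a skin gene of the run, at 6.14, 5.61 and 5.42 in the MPN mice against 4.81, had the largest difference of these neighbours, 0.92 (SE 0.36, limma adjusted p = 0.431), followed by S100a5 and by Lce1b at 0.78. Members next to each other thus did not all share one difference, as with S100a8 at 1.63 beside S100a9 at 1.01. S100a13, at 1.35, lies beside S100a1 at -0.48, with S100a14 between it and S100a16 at -0.40. The S100a13 difference rested on MPN mouse 2 and was 0.23 without that mouse.

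Receptors of released S100 proteins went both ways. Cd14, the co-receptor of Toll-like receptor 4, was at 9.32, 8.23 and 9.32 in the MPN mice, against 5.88 in the control mouse, a difference of 3.07 (SE 0.58, limma adjusted p = 0.208). Ly96, the MD-2 subunit that completes this receptor, was at 2.93, 2.84 and 2.87 in the MPN mice, against 5.75 in the control mouse. The MPN values of Ly96 lay under the background limit, and its difference of -2.87 (SE 0.15) had limma adjusted p = 0.0871, the smallest of the 10 receptors. With cyclic loess and with the receptor gene shift it passed, at -3.09 and -3.13. Tlr4 itself was at 6.05, 5.39 and 7.07 in the MPN mice against 7.57, a difference of -1.40 (SE 0.76), and Ager, the gene of RAGE, differed by 0.11 (SE 0.20). The components of the receptor complex for S100a8 and S100a9 therefore did not share a direction. Nptn, the neuroplastin receptor of S100a8, was at 5.17, 6.31 and 8.07 in the MPN mice against 9.20, a difference of -2.68 (SE 1.30). Smaller differences were seen in Bsg (-0.27), Cd36 (-0.17), Cd69 (-0.05), Mcam (0.04) and Alcam (0.46). Of the 10, 1 was higher and 5 were lower on each MPN array.

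Downstream genes of the pathway showed less, while upstream transcription factors went both ways. Of 15 measured genes of Toll-like receptor 4 and RAGE signalling, 3 were higher and 1 was lower on each MPN array, 0 passed and 0 had an unadjusted p under 0.05, with a median of 0.20. The largest were Tnfaip3, an inhibitor of NF-kappaB, at 0.82 (SE 0.74), Rela, an NF-kappaB subunit, at -0.63 (SE 0.66) and Irak3, an inhibitory kinase, at 0.61 (SE 1.42). Single mice weighed on each, since Tnfaip3 was at 0.35 and Irak3 at -0.31 without MPN mouse 3, and Rela at -0.24 without MPN mouse 1 and at -0.96 without MPN mouse 2. Of 10 myeloid transcription factors, 6 were higher and 2 were lower on each MPN array, with a median of 0.48. The 1 with an unadjusted p under 0.05 was lower. This was Cebpd, a C/EBP factor named after its values were seen, at 6.94, 6.97 and 6.94 in the MPN mice against 7.63, a difference of -0.68 (SE 0.15, limma adjusted p = 0.249) that was -0.26 after repeated quantile normalisation. Myb, Spi1 (the gene of PU.1) and Cebpe (which drives late granulocyte genes) had the largest differences, 1.84 (SE 0.83), 1.44 (SE 0.85) and 1.35 (SE 1.32), and none passed. Cebpe was at 0.51 without MPN mouse 3. For the release of proteins without a signal peptide, 6 genes had a median of 0.09, and the largest were Casp1 at 0.73 (SE 0.47), Il1a at 0.38 (SE 0.22) and Fgf1 at 0.14 (SE 0.60).

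**Figure D4:**
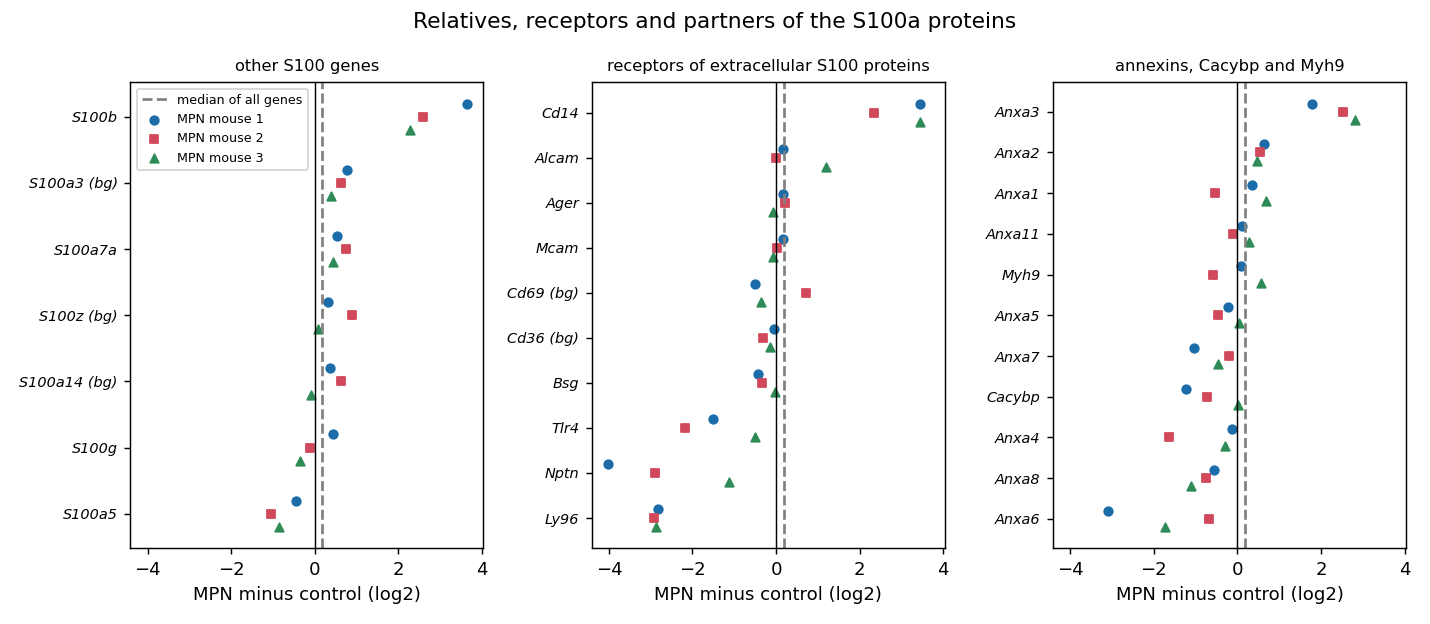
Difference in RMA value (log2) between each MPN array and the control array for 7 other S100 genes, 10 receptors of released S100 proteins and a set of partners inside the cell, with the median of all genes, 0.18, as a dashed line and (bg) marking genes under the background limit in both groups. S100b, Cd14 and Anxa3 lie far above 0 on each MPN array, and Ly96 lies near -2.87 on all 3.

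Partners inside the cell did not follow the S100a genes as a set. Of 17 annexins and other partners, 3 were higher and 6 were lower on each MPN array, and the median was -0.21. Anxa3, an annexin of neutrophil granules, was at 8.22, 8.98 and 9.26 in the MPN mice against 6.45, a difference of 2.37 (SE 0.50, limma adjusted p = 0.242). Atp2a2, the calcium pump on which S100a1 acts, differed by -1.91 (SE 0.97) and Anxa6 by -1.83 (SE 1.09). For Anxa6 the difference was -1.20 without MPN mouse 1 and -0.83 with the mean of its probe sets. Around annexin A2, 5 of 6 measured plasmin genes were higher on each MPN array, but 1 of the 6 lay above background in either group. That gene was Plaur, the urokinase receptor, at 8.57, 7.80 and 9.002 in the MPN mice against 5.86, a difference of 2.60 (SE 0.56, limma adjusted p = 0.249). Plgrkt, a plasminogen receptor, differed by -1.19 (SE 0.20) and Serpinb2, an inhibitor of urokinase, by 0.58 (SE 0.30). Of 22 other EF-hand genes, 10 were higher and 8 were lower on each MPN array. Gca, or grancalcin, a neutrophil protein, differed by 4.10 (SE 0.48), Pls3, a plastin of non-blood cells, by -3.40 (SE 0.37), and Lcp1, the leukocyte plastin, by 2.82 (SE 0.32).

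Genes with the profile most like that of each member were found by the root mean square difference of centred values over the 4 arrays, among 11306 genes above background. With 4 arrays many genes come close, so these are descriptions. Nearest to S100a8 were Stmn1, the microtubule protein stathmin, at 0.04, Slpi, a leukocyte protease inhibitor, at 0.07 and Etfb at 0.08. Nearest to S100a9 were Uqcrq, Fermt3, the kindlin of blood cells, and Mmp25, a leukocyte metalloproteinase, at 0.05 to 0.06. The profile of S100a4 was closest to those of H4c14, a histone gene, Ccnb2, a mitotic cyclin, and Tarm1, a receptor of myeloid cells, at 0.15 to 0.18. Ccnb2 was at 8.66, 10.76 and 9.15 in the MPN mice against 7.17, with MPN mouse 2 highest as in S100a4. For S100a13 the closest were Tomm5, Cpa3, the mast cell carboxypeptidase, and Fggy, at 0.13 to 0.16, and Cpa3 was at 4.00, 7.81 and 4.51 in the MPN mice against 4.18. Without MPN mouse 2 the difference of Cpa3 was 0.07, that of Tomm5 0.07 and that of Fggy 0.11. Among the genes nearest to S100a10 was Gadd45a, a DNA damage gene, at 0.04, and among those nearest to S100a1 was Hsp90b1, a chaperone of the endoplasmic reticulum, also at 0.04.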

How the data were processed

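Labelled cDNA from sorted marrow stromal cells was hybridised to Affymetrix mouse gene arrays after amplification, as the labels' protocols and the design describe. Per the submitters' processing notes, the authors used RMA, which gives log2 values, and these were deposited. RMA corrects background, brings arrays to one distribution and summarises probe sets, which compresses differences near background. No source used here gives its version, the probe set definitions or a genome build, and probe set positions are left out.

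Of 35556 probe sets, 21789 have 1 gene symbol in the platform table, 1621 have several and 12146 have none here. Each of 19938 genes was represented by its probe set of highest mean over all arrays. By gene identifier, 21698 probe sets matched the RefSeq table (GRCm38.p6), and 0 symbols changed.

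The comparison used lmFit and eBayes of limma 3.58.1 (R 4.3.3; two-sided; 2 residual degrees of freedom and a prior of 1.39), with Benjamini-Hochberg adjustment over all genes. SD covers the 3 MPN values and holds no spread of the control, and SE covers the fitted difference. The steps were tested on simulated data. The simulation gave the control array the spread of the MPN arrays, so it could not test that assumption. Alternatives left out each MPN mouse, averaged probe sets, removed genes under background, repeated quantile normalisation, applied cyclic loess, shifted arrays to one median of receptor genes and let the variance prior follow a trend.

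Members, lists and tests were chosen with earlier results of these data known. Named genes are the members, all measured genes of the other S100 and receptor lists, up to 3 genes of each other list by size of difference, the 3 nearest profiles of each member and the 3 neighbours with the largest differences. Of the genes this rule takes, those that add nothing to the S100a results are given only in the counts.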

Additional observations from a re-analysis of the deposited data

How the results depend on the processing

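Each of the 9 members kept its direction under all 9 alternatives, and 0 of the 81 values passed the adjusted threshold, where the lowest adjusted p was 0.095 (S100a8). Several alternatives could not have turned a direction. Removing genes under background and the variance trend leave each difference as it was, and averaging probe sets changed only S100a11. Leaving out a mouse cannot turn a member that lies on one side of the control on each MPN array. Only repeated quantile normalisation, cyclic loess and the receptor gene shift could do so. The S100a8 difference ran from 1.27 to 1.67 and that of S100a10 from 0.70 to 0.97. The median of the members was 0.64 with cyclic loess and 0.70 with the receptor gene shift, against 0.96 as deposited. Over all genes, 95 passed the threshold with cyclic loess and 153 with the receptor gene shift, against 0 as deposited and 0 whichever MPN mouse was left out, while 2511 genes had an unadjusted p under 0.05 in limma as deposited. The count of genes 2-fold higher on each array lay between 373 and 378 with 1 MPN mouse removed, against 225, since fewer arrays had to meet the fold. With 1 MPN mouse left out, the members' differences ran from -0.56 to -0.41 for S100a1, from -0.45 to -0.32 for S100a16, from 1.58 to 2.47 for S100a4, from 0.54 to 0.78 for S100a6, from 0.95 to 1.12 for S100a9, from 0.35 to 0.47 for S100a11 and from 0.23 to 1.96 for S100a13. Their median ran from 0.72 to 0.96 and the contrast of neutrophil and widely used members from 0.43 to 0.98. Members at an unadjusted p under 0.05 numbered 2 to 4, all genes at that level 1757 to 3753, and members at least 2-fold higher on each array 2 to 3. Of 102 other genes recomputed, which include the nearest profiles, 11 changed sign under some alternative. With the receptor gene shift Ager was at -0.15, Mcam at -0.21, Fgf1 at -0.12, S100a2 at -0.1785 and Slc4a1, an erythroid marker, at -0.0058. With cyclic loess Mcam was at -0.0418, S100a2 at -0.106 and Fgf1 at -0.0482. After repeated quantile normalisation Bsg was at 0.10, S100g at 0.0598 and Uap1, near S100a16 in profile, at 0.003. With 1 mouse left out, S100g ran from -0.23 to 0.17, S100a2 from -0.0104 to 0.1276, Nes from -0.1678 to 0.148, Mcam from -0.024 to 0.0964, Cd69 from -0.43 to 0.17, Irak3 from -0.31 to 1.07 and Fgf1 from -0.22 to 0.425. Ly96, Kitl, Mertk and Ebf1 passed the threshold with cyclic loess and with the receptor gene shift, and Elane with cyclic loess. Causes of these changes were not tested. No paired analysis was possible because the control label carries no replicate number that could match an MPN mouse.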
